A study of Mus musculus with 12 samples.

Results

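The 10 mouse genes described here are 3 NF-kB subunits (Nfkb1, Nfkb2, Relb), 2 inhibitors of the pathway (Nfkbia, Tnfaip3) and 5 genes that NF-kB is known to drive (Il6, Lif, Vcam1, Icam1, Ptgs2). They were picked by symbol as textbook NF-kB factors and targets, through the RefSeq accession of each probe. The choice was made with earlier results of these data known. The members make up 10 of the 24184 genes tested. All 10 were on the array, with 13 probes, of which 12 passed the filter on dim probes. RNA came from DKO172 cells, a female mouse line recorded as derived from a fallopian tumor, and the array measured it at 108 h after transfection. The 4 groups, of 3 arrays each, were cells given a plasmid for DICER1 D1709N, for DICER1 G1809R, for wild-type DICER1 (WT) or for GFP, and all groups carried the same hygromycin-selectable vector and 84 h of hygromycin at 300 µg/ml. The question of the series was how DICER1 constructs in Dicer1-deficient cells differ from GFP, and the mutants from WT. All groups come from 1 cell line, and the labels of the samples name no genotype for it apart from the plasmid it received. The labels do not say that the replicates were grown separately, so the p-values reflect the spread among these arrays, part of which may be technical.

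DICER1 is the enzyme that cuts hairpin precursors into mature miRNAs, and D1709N and G1809R both change its RNase IIIb domain, which releases the 5p strand. NF-kB is a family of paired DNA-binding proteins held in the cytoplasm by IkB proteins. Signals from cytokine and Toll-like receptors destroy the IkB and let the pairs enter the nucleus, where they switch on cytokines, adhesion molecules and their own inhibitors. Nfkb1 and Nfkb2 encode precursors of DNA-binding subunits, and Relb encodes the partner used in the slower, non-canonical branch. Nfkbia encodes IkB-alpha and Tnfaip3 the ubiquitin-editing enzyme A20, both induced by NF-kB and both known to shut it off.

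RefSeq's promoter table (GRCm38.p6) holds a window of 250 bases before to 50 bases after the start for 7 of the 10 genes: Icam1, Il6, Lif, Nfkb2, Nfkbia, Ptgs2 and Tnfaip3. The 250 bases before the start, but not the 50 after it, were searched on both strands for the kappa-B consensus, the motif that NF-kB pairs bind. There 4 of the 7 genes held a match: Il6, Nfkb2, Nfkbia and Tnfaip3. Of all 32851 windows in that list 3.90% held one in those bases, and of all 27025 genes 4.46%. The 250 bases before the start are shown for the 3 genes with a match whose levels differed most between mutants and WT below, and for Lif, which went the other way and has no match in these bases. Capitals mark the matches.
Il6, chr5:30012864-30013113, plus strand: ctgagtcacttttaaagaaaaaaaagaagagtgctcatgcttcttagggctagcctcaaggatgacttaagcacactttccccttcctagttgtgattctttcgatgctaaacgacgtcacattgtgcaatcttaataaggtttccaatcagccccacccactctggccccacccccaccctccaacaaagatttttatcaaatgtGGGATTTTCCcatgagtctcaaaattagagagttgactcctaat
Tnfaip3, chr10:19015411-19015660, minus strand: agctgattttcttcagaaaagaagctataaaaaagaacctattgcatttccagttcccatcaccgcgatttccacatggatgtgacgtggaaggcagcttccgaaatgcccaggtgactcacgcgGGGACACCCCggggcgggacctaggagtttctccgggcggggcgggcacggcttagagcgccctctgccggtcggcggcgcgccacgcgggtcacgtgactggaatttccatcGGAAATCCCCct
Nfkbia, chr12:55492648-55492897, minus strand: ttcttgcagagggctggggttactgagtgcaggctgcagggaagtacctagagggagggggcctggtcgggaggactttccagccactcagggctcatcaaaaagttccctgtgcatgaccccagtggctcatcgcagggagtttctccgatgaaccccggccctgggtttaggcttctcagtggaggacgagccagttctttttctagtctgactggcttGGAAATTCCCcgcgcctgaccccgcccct
Lif, chr11:4257318-4257567, plus strand: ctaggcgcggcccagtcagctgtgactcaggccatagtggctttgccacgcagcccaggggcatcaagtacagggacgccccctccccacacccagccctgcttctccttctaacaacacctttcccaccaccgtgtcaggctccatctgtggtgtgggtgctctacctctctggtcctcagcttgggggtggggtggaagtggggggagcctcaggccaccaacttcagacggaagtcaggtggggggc
The Il6 match begins 44 bases before the start and the Nfkbia match 29 bases before it. The Tnfaip3 window holds 2 matches, beginning 125 and 12 bases before the start, and the second window that RefSeq lists for this gene holds none before its start. The 3 Nfkb2 windows all hold a match, and in 1 of them 2 matches overlap by all but 1 base. A match describes the letters and is not a measured binding site. Of the genes not shown, Nfkb2, with matches, differed from WT by −0.04 with D1709N and 0.01 with G1809R. Without a match, Ptgs2 differed from WT by −0.17 and −0.18, and Icam1, near background, by 0.33 and −1.15. A link between a match and the direction of change was not tested.

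Levels are log2 intensities, each set against its own array's 75th percentile, and serve to compare arrays for 1 probe, not genes with each other. The 12 arrays lay on 2 slides, with replicate 1 of each group on the first and replicates 2 and 3 on the second. Between 49.5% and 82.7% of probes were well above background, most in WT replicate 1, which also agreed least with its own group (r = 0.977 and 0.980, against 0.981 to 0.993 for all other pairs within a group). No non-control probe was saturated. Of the markers of the labelled tissue, the epithelial genes Krt18, Krt8, Krt7, Wt1 and Ovgp1 were above background on all 12 arrays, Epcam on 11 and Cdh1 on 10, but Pax8 and Foxj1 on only 4 each. Mesenchymal genes, such as Vim and Dcn, were above background on 12 arrays as well. Summed over the 9 epithelial markers, the signal was 35388 to 49693% of the array's 75th percentile with D1709N, 28193 to 46514% with G1809R, 22614 to 36725% with WT and 27971 to 42069% with GFP. Less RNA per cell and fewer cells of a kind cannot be told apart in such samples.

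Each difference was tested in 1 limma fit over the 12 arrays, once with group as the only factor and once with the replicate number as a block, since arrays of 1 number deviated together. A gene was called under an adjusted p of 0.05, over all genes. With group alone, 1 of the 10 genes was called in WT against GFP (Vcam1, lower), where 2.95% of all genes were called. No member was called in D1709N against GFP (background 0.0496%), in G1809R against GFP (0.0124%), in D1709N against WT (1.66%) or in G1809R against WT (1.64%). At an unadjusted limma p under 0.05 there were 4 of the 10 in D1709N against GFP (7.21% of all genes), 4 in G1809R against GFP (6.64%), 2 in D1709N against WT (13.7%) and 4 in G1809R against WT (12.2%). With the block, 4 members were called in D1709N against GFP (background 4.25%), 3 in G1809R against GFP (3.74%) and 3 in WT against GFP (17.8%), all lower. Against WT the block gave 2 calls with D1709N (background 15.5%), both lower, and 4 with G1809R (12.7%), 3 lower and 1 higher. The 3 comparisons with GFP share its arrays, as the 2 with WT share the WT arrays. The members and the gene lists below were chosen with earlier results of these data known. Their shares beside those of all genes are therefore a description only.

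The median difference over the 10 genes was −0.43 in D1709N against GFP, −0.47 in G1809R against GFP and −0.27 in WT against GFP. The medians over all genes were 0.03, 0.05 and 0.04 in the same order. Against WT the members' median was 0.02 with D1709N and −0.10 with G1809R, against −0.01 and 0.01 over all genes. Without Icam1, which passed the filter on dim probes only through GFP, the members' medians were −0.43, −0.44 and −0.25 against GFP, and −0.04 and −0.02 against WT. They are given as a description of the genes measured.

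**Figure D1:**
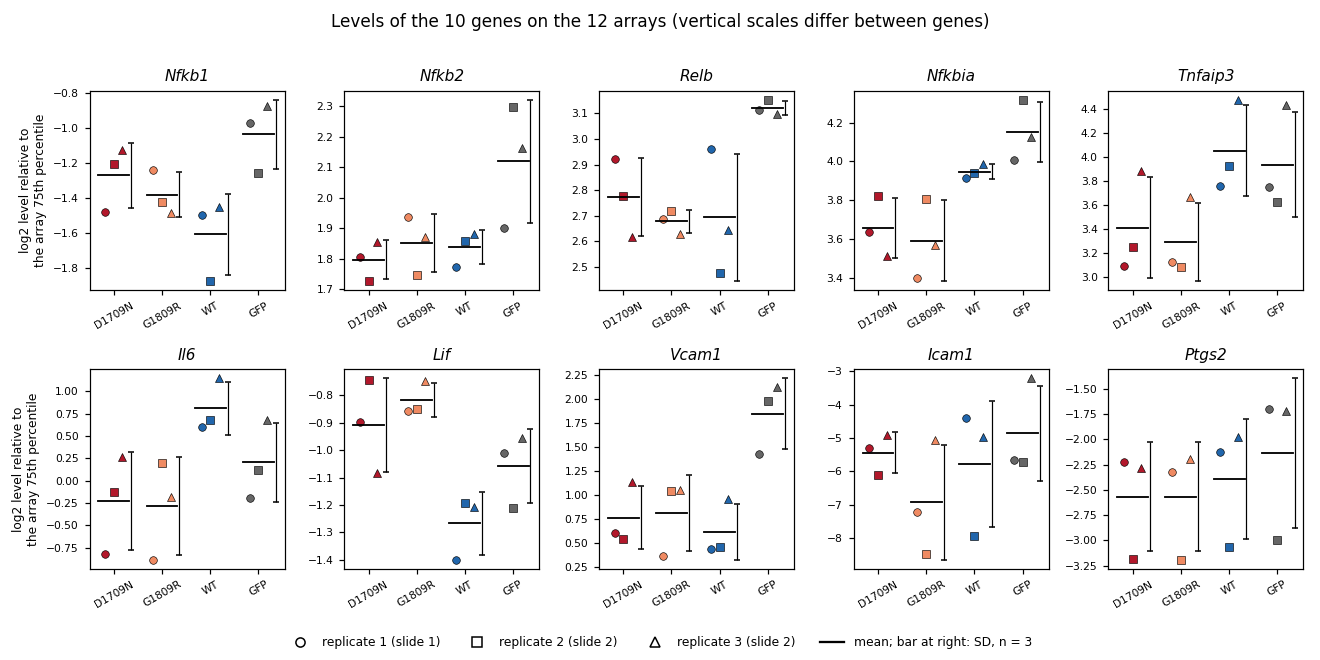
Log2 level relative to the array's 75th percentile (vertical axes, which differ between panels) of each of the 10 genes in D1709N, G1809R, WT and GFP cells (horizontal axis). Points are single arrays, with circles, squares and triangles for replicates 1, 2 and 3, the line is the mean and the bar the SD of 3 arrays. All 3 GFP arrays lie above all other arrays for Vcam1, and all 3 WT arrays lie above all mutant arrays for Il6.

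Of the subunits, Relb and Nfkb1 were lower in WT than in GFP cells, and Nfkb2 showed smaller differences. Relb stood at 2.92, 2.78 and 2.62 with D1709N, 2.69, 2.72 and 2.63 with G1809R, 2.96, 2.48 and 2.65 with WT and 3.11, 3.15 and 3.10 with GFP. The 3 GFP arrays were the 3 highest. The difference of WT from GFP was −0.43 ± 0.14 (SE, limma), with an adjusted p of 0.137 with group alone and 0.0303 with the block. The blocked call was lost without WT replicate 2 (adjusted p = 0.0907), WT replicate 3 (0.0689), GFP replicate 2 (0.105) or GFP replicate 3 (0.129). Neither mutant was called: Relb differed from GFP by −0.35 with D1709N (adjusted p = 0.603, and 0.116 with the block) and by −0.44 with G1809R (0.513, and 0.0661 with the block). A second Relb probe also had its highest mean in GFP cells, at 1.81 ± 0.13 with D1709N, 1.82 ± 0.08 with G1809R, 1.73 ± 0.15 with WT and 2.23 ± 0.09 with GFP (SD, n = 3 each).

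Nfkb1 stood at −1.48, −1.21 and −1.13 with D1709N, −1.24, −1.42 and −1.48 with G1809R, −1.50, −1.87 and −1.45 with WT and −0.97, −1.26 and −0.88 with GFP. The WT arrays all lay below the GFP arrays, while each mutant group overlapped with GFP. WT differed from GFP by −0.57 ± 0.16 (SE), with an adjusted p of 0.0979 with group alone and 0.0237 with the block, by −0.52 on the first slide and by −0.62 and −0.58 on the second. The blocked call was lost without WT replicate 2 (0.0887), GFP replicate 1 (0.0876) or GFP replicate 3 (0.11). A second Nfkb1 probe did not show this gap: it averaged −2.18 with D1709N, −2.11 with G1809R, −1.90 with WT and −1.82 with GFP. The result therefore rests on the brighter probe, and the cause of the disagreement was not tested.

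Nfkb2 averaged 1.80 ± 0.06 with D1709N, 1.85 ± 0.10 with G1809R, 1.84 ± 0.06 with WT and 2.12 ± 0.20 with GFP (SD, n = 3 each). GFP replicates 2 and 3 were the 2 highest arrays and GFP replicate 1 lay inside the range of the others. Nfkb2 was not called: the differences from GFP were −0.32 with D1709N, −0.27 with G1809R and −0.28 with WT, with adjusted p of 0.571, 0.746 and 0.286 with group alone and 0.13, 0.205 and 0.109 with the block.

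The inhibitors Nfkbia and Tnfaip3 were both lower in mutant cells than in WT and GFP cells. Tnfaip3 stood at 3.09, 3.25 and 3.89 with D1709N, 3.13, 3.08 and 3.66 with G1809R, 3.76, 3.92 and 4.48 with WT and 3.75, 3.62 and 4.44 with GFP. Replicate 3 was the highest array of each group, and within each replicate number both mutants lay below both WT and GFP. The difference from WT was −0.65 with D1709N and −0.76 with G1809R (SE 0.30 each). With group alone neither was called (adjusted p = 0.391 and 0.323), and with the block both fell (SE 0.09, adjusted p = 0.00299 and 0.00156), a change to 0.639 and 0.589 of the WT level. By pair of arrays the difference was −0.67, −0.67 and −0.60 for D1709N and −0.63, −0.84 and −0.82 for G1809R. Both blocked calls held when any 1 of the 12 arrays was left out (adjusted p 0.00441 to 0.0179 for D1709N and 0.00263 to 0.0125 for G1809R). Of the 11 other settings run, the replicate block alone called them, and with the slide as a block or any other setting they were not called (adjusted p up to 0.670 for D1709N and 0.503 for G1809R).

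Against GFP, Tnfaip3 fell with the block by 0.53 in D1709N cells (adjusted p = 0.0192, and 0.790 with group alone) and by 0.65 in G1809R cells (0.0123, and 0.785). These calls depended on the arrays. The D1709N call was lost without any of its own 3 arrays (0.0744 to 0.0776) or without GFP replicate 1 (0.0715) or 3 (0.106), and the G1809R call without G1809R replicate 2 (0.0752) or 3 (0.0615) or GFP replicate 2 (0.0511) or 3 (0.0722). WT and GFP differed by 0.12, with an interval of −0.56 to 0.79, and were not called (adjusted p = 0.982, and 0.408 with the block).

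Nfkbia stood at 3.64, 3.82 and 3.51 with D1709N, 3.40, 3.81 and 3.57 with G1809R, 3.91, 3.94 and 3.99 with WT and 4.01, 4.32 and 4.12 with GFP. The groups kept the order mutants, WT, GFP with no overlap between mutants and WT or between WT and GFP. Against GFP the difference was −0.49 ± 0.14 with D1709N and −0.56 ± 0.14 with G1809R (SE), with adjusted p of 0.382 and 0.380 with group alone and 0.0315 and 0.0232 with the block. Against WT it was −0.29 with D1709N (adjusted p = 0.403, and 0.0755 with the block) and −0.36 with G1809R (0.314, and 0.0450 with the block). Single arrays decided these blocked calls. The G1809R against WT call was kept only without WT replicate 2, D1709N against GFP only without G1809R replicate 1 or any 1 WT array, and G1809R against GFP only without any 1 of the D1709N or WT arrays, with adjusted p up to 0.167, 0.139 and 0.104 otherwise. WT against GFP was not called (−0.20, adjusted p = 0.598, and 0.185 with the block).

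Il6 encodes interleukin 6, a cytokine secreted by many stromal and tumor cells, and its transcript was lower with both mutants than with WT. It stood at −0.82, −0.12 and 0.26 with D1709N, −0.88, 0.20 and −0.18 with G1809R, 0.60, 0.68 and 1.14 with WT and −0.19, 0.12 and 0.68 with GFP. Every WT array lay above every mutant array, and GFP lay between and overlapped with all 3 groups. The difference from WT was −1.03 with D1709N and −1.10 with G1809R (SE 0.36 each), a level 0.488 and 0.468 times that of WT. Neither was called with group alone (adjusted p = 0.211 and 0.205). With the block both fell (SE 0.19, adjusted p = 0.0106 and 0.00909), and with the slide as a block as well (0.0244 and 0.0208). The other 9 settings did not call them (adjusted p up to 0.422 and 0.382).

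The Il6 difference from WT was larger in the pair of the first slide, −1.42 with D1709N and −1.48 with G1809R, than in the pairs of the second, −0.80 and −0.88 with D1709N and −0.48 and −1.32 with G1809R. Both blocked calls held without any 1 of the 12 arrays (adjusted p 0.00489 to 0.0476 for D1709N and 0.00663 to 0.0483 for G1809R). Without WT replicate 1, the array that stands apart, the blocked differences were −0.87 (adjusted p = 0.0375) and −0.94 (0.0329). Il6 in WT cells was 0.60 above GFP and not called (adjusted p = 0.507, and 0.0659 with the block). It differed from GFP by −0.43 with D1709N and −0.49 with G1809R and was not called there either.

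Lif encodes leukemia inhibitory factor, a cytokine of the IL-6 family, and it lay higher with the mutants than with WT, opposite to Il6. It stood at −0.90, −0.74 and −1.08 with D1709N, −0.86, −0.85 and −0.75 with G1809R, −1.40, −1.19 and −1.21 with WT and −1.01, −1.21 and −0.95 with GFP. The mutant arrays all lay above the WT arrays, while D1709N and WT both overlapped with GFP. G1809R differed from WT by 0.45 ± 0.12 (SE), with an adjusted p of 0.123 with group alone and 0.0389 with the block, and D1709N by 0.36 ± 0.12 (0.211, and 0.0717). The blocked call for G1809R was kept only without D1709N replicate 2, D1709N replicate 3 or GFP replicate 2, and its adjusted p reached 0.131 without the others. No call was made against GFP, where Lif was at 0.15 with D1709N, 0.24 with G1809R and −0.21 with WT (block adjusted p = 0.475, 0.282 and 0.261).

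Vcam1 encodes an adhesion molecule that binds integrins on leukocytes, and it was lower in every DICER1 group than in GFP cells. It stood at 0.60, 0.54 and 1.14 with D1709N, 0.36, 1.04 and 1.05 with G1809R, 0.44, 0.46 and 0.95 with WT and 1.43, 1.98 and 2.13 with GFP. The 3 GFP arrays were the 3 highest, and the DICER1 groups overlapped with each other. Vcam1 fell in WT against GFP by 1.23 ± 0.27 (SE), to 0.426 of the GFP level, with an adjusted p of 0.0424 with group alone and 0.00144 with the block. The difference was −0.99 on the first slide and −1.52 and −1.18 on the second. With group alone the call was lost on leaving out any array except G1809R replicate 1 (0.0396) or WT replicate 3 (0.0449), with adjusted p of 0.0521 to 0.177. With the block it held without any 1 of the 12 arrays (0.00222 to 0.0110).

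Vcam1 differed from GFP by −1.09 with D1709N (adjusted p = 0.291) and by −1.03 with G1809R (0.413), and both were called with the block (0.00963 and 0.0147). The blocked call for D1709N was lost without D1709N replicate 2 (0.0521), GFP replicate 2 (0.0562) or GFP replicate 3 (0.0529), and that for G1809R without any of its own 3 arrays (0.0563 to 0.0702), GFP replicate 2 (0.0671) or GFP replicate 3 (0.0722). Between mutants and WT, Vcam1 was at 0.14 with D1709N, with an interval of −0.45 to 0.74, and at 0.20 with G1809R, with an interval of −0.40 to 0.80. The summed signal of mesenchymal markers was lower in WT than in GFP cells, while single markers went both ways. Of 10 such markers, 8 were above background on 12 arrays, Pdgfrb on 11 and Col3a1 on 10. Their summed signal was 5673 to 8125% of the 75th percentile with D1709N, 5940 to 8131% with G1809R, 3885 to 5953% with WT and 6616 to 9207% with GFP. WT and GFP did not overlap, while each mutant overlapped with GFP. The sum leans on Vim and Dcn, the brightest of the markers. Dcn averaged 2.71 with WT and 4.09 with GFP, and Vim 4.76 with WT and 5.53 with GFP. Pdgfra, Col1a2 and Col3a1 were lower with WT as well. Thy1 went the other way, at 2.80 with WT and 2.10 with GFP, as did Pdgfrb (−3.89 and −4.63), Col1a1 (−0.63 and −0.79) and S100a4 (0.49 and 0.42). Acta2 averaged 0.76 in both. The part of these markers in the results on Vcam1, Relb and Nfkb1 was not tested. A second Vcam1 probe was above background on 1 array only, of WT, and gave no measurement.

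Icam1 encodes the ligand of leukocyte integrins of another class and was near background: its probe was above it on 1 D1709N, 1 G1809R, 2 WT and 3 GFP arrays. It passed the filter only through GFP. Its levels ran from −6.10 to −4.90 with D1709N, −8.47 to −5.07 with G1809R, −7.93 to −4.40 with WT and −5.73 to −3.22 with GFP, and all groups overlapped. No difference was called, and the interval for G1809R against GFP was −4.53 to 0.41.

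Ptgs2 encodes the inducible cyclooxygenase, which makes prostaglandin precursors. Its 10 spots averaged −2.23, −3.19 and −2.29 with D1709N, −2.32, −3.19 and −2.19 with G1809R, −2.13, −3.07 and −1.98 with WT and −1.70, −2.99 and −1.72 with GFP. Replicate 2 was the lowest array of each group, and 86.7% of the variance between arrays lay between replicate numbers, against 11.1% between groups. D1709N differed from GFP by −0.43, with an adjusted p of 0.978 with group alone and 0.0478 with the block, and this call was lost on leaving out any 1 array (0.0519 to 0.193). G1809R differed from GFP by −0.43 as well (block adjusted p = 0.0504) and WT by −0.25 (0.111).

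**Figure D2:**
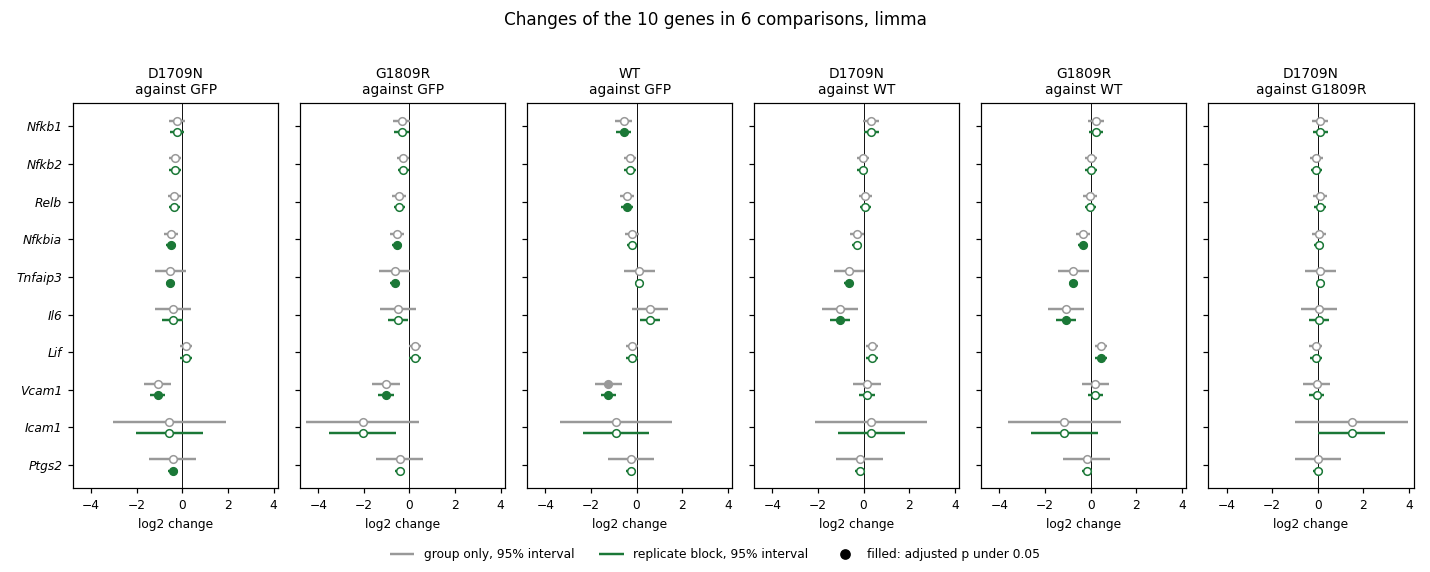
Log2 difference of each of the 10 genes (vertical axis) in the comparisons of the DICER1 groups with GFP and with WT and of the mutants with each other, with the 95% interval from limma with group alone and with the replicate number as a block. Intervals narrow with the block for all 10 genes, by the largest proportion for Ptgs2 and Tnfaip3, and the Icam1 intervals are the widest.

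The mutants were set against each other last. No member was called in D1709N against G1809R by limma with group alone (background 0%) or with the block (background 0%). At an unadjusted p under 0.05 there were 0 members with group alone (0.269% of all genes) and 1, Icam1, with the block (4.40% of all genes). Apart from Icam1, which differed by 1.49 (interval −0.98 to 3.96), the differences ran from −0.09 to 0.12. The interval was −0.73 to 0.85 for Il6, −0.55 to 0.79 for Tnfaip3, −0.65 to 0.55 for Vcam1, −0.24 to 0.37 for Nfkbia and −0.32 to 0.21 for Nfkb2. A p over the threshold does not show that the mutants act alike, and these intervals give the differences that the arrays leave possible.

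**Figure D3:**
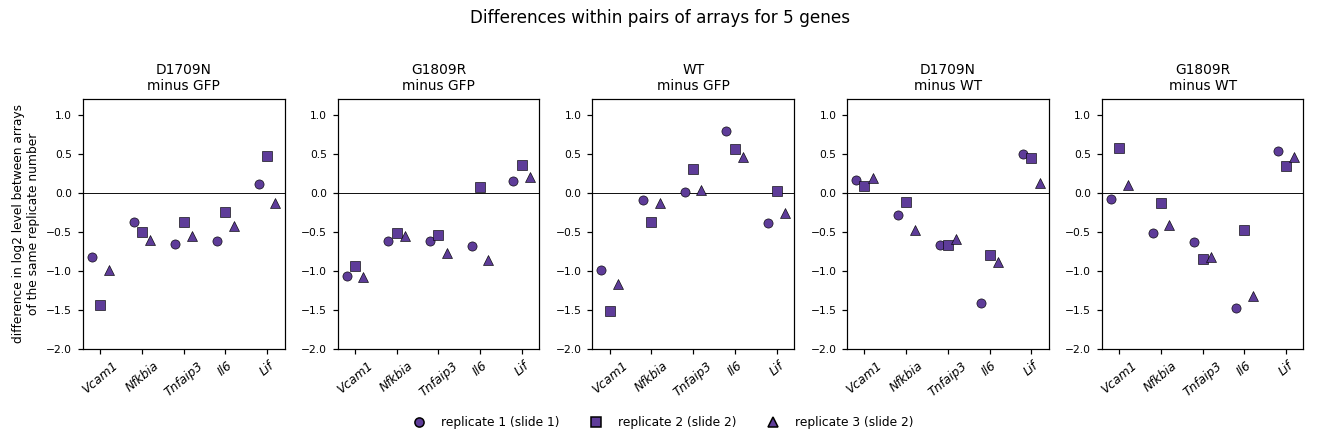
Log2 difference of each pair of arrays with the same replicate number, for Vcam1, Nfkbia, Tnfaip3, Il6 and Lif only. The mutants are set against WT and the DICER1 groups against GFP. For Tnfaip3 all 3 pairs lie below 0 for both mutants against WT, at −0.84 to −0.60, and for Lif all 3 pairs lie above 0, at 0.13 to 0.54.

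The 10 genes did not vary as 1 block. With each replicate number's mean removed, Relb and Vcam1 went together over the 12 arrays (r = 0.90), as did Nfkbia and Ptgs2 (0.87) and Tnfaip3 and Il6 (0.84). Il6 and Lif went in opposite directions (r = −0.83), and Vcam1 and Il6 had a correlation of 0.02. These values describe 12 arrays that share groups, slides and replicate numbers. The share of variance between groups was highest for Nfkbia (76.7%), Vcam1 (74.7%) and Lif (73.0%).

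For the members above background on all 12 arrays, the genes with the most similar levels over the arrays were found by Pearson's r. They were Kdr for Tnfaip3 (r = 0.972), Cdk5r1 for Ptgs2 (0.965), Enc1 for Il6 (0.953) and Lonrf1 for Vcam1 (0.940). For the others they were Tslrn1 for Nfkb1 (0.930), Cd34 for Relb (0.923), 4930518P08Rik for Nfkbia (0.921), Adck2 for Nfkb2 (0.916) and Rbl1 for Lif (0.893). Each is the highest r in a search of the 14732 genes with a symbol, over only 12 arrays. A high r was therefore likely for any member, and the values are given as a description. With the replicate number's mean removed, the r for Ptgs2 and Cdk5r1 was 0.773. Kdr is an endothelial marker. It was above background on 12 arrays, with Esam and Pecam1, while Cdh5, Emcn and Tie1 were above it on 0 and Tek on 1. Summed over the 8 endothelial markers, the signal was 1060 to 1958% of the 75th percentile with D1709N, 1079 to 1942% with G1809R, 1610 to 2611% with WT and 1513 to 2675% with GFP, so that the ranges overlapped. Kdr, the brightest of them, averaged 3.68 with D1709N, 3.67 with G1809R, 4.26 with WT and 4.21 with GFP. All samples came from 1 cell line, and whether they held endothelial cells was not tested. The part of these markers in the results on Tnfaip3 and Vcam1 was not tested either.

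Of 40 further subunits, IkB proteins, kinases and adaptors, all tested, 1 was called with group alone in WT against GFP (2.50%, against 2.95% of all genes): Tab2, an adaptor of the TAK1 kinase upstream of NF-kB, fell by 0.49 (adjusted p = 0.0231). This call was lost without WT replicate 1 or 2 or any 1 GFP array (adjusted p up to 0.115). The list's median was −0.09 there, −0.13 in D1709N against GFP and −0.11 in G1809R against GFP. With the block the calls were 10 (4 higher, 6 lower) in WT against GFP, or 25.0% against 17.8% of all genes, 3 lower in D1709N against GFP (7.50% against 4.25%) and 4 lower in G1809R against GFP (10.0% against 3.74%). Against WT they were 5 (1 higher, 4 lower) with D1709N (12.5% against 15.5%) and 2 lower with G1809R (5% against 12.7%). Among the calls against GFP was Ikbkb, the catalytic kinase that marks IkB for destruction. Ikbkb differed from GFP by −0.74 with D1709N (block adjusted p = 0.00954), −0.69 with G1809R (0.0149) and −0.53 with WT (0.00793). Its mean level was −0.79 with D1709N, −0.74 with G1809R, −0.58 with WT and −0.05 with GFP.

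Of 28 ligands and receptors that signal to NF-kB, 19 were measured, and Tlr2, the receptor of bacterial lipopeptides, was the 1 called with group alone (5.26% of the list). Of all genes, 2.95% were called in WT against GFP, 1.66% in D1709N against WT and 1.64% in G1809R against WT. With the block 4 of the 19 were called in WT against GFP (2 higher, 2 lower, or 21.1% against 17.8% of all genes). Against WT they were 3 with D1709N (1 higher, 2 lower, or 15.8% against 15.5%) and 3 lower with G1809R (15.8% against 12.7%). The mutants against GFP gave 3 with D1709N (1 higher, 2 lower, or 15.8% against 4.25%) and 2 lower with G1809R (10.5% against 3.74%). The level of Tlr2 was −4.46 ± 0.26 with D1709N, −4.46 ± 0.26 with G1809R, −3.12 ± 0.37 with WT and −4.24 ± 0.29 with GFP (SD, n = 3 each). Tlr2 fell by 1.34 in D1709N against WT (adjusted p = 0.0261) and by 1.34 in G1809R against WT (0.0243), and rose by 1.12 in WT against GFP (0.0374). The first call was lost without any 1 D1709N array or WT replicate 1 or 2 (adjusted p up to 0.104), and the second without any 1 G1809R array or WT replicate 1 or 2 (up to 0.0968). The third was kept only without D1709N replicate 2, G1809R replicate 2 or WT replicate 3, and reached 0.161 otherwise. The Tlr2 probe was above background on 2 of 3 D1709N arrays and on all arrays of the other groups. With normexp background correction the differences shrank to −0.72, −0.78 and 0.71 and stayed called, and with quantile normalization (adjusted p = 0.284, 0.278 and 0.369) or the authors' deposited values (0.263, 0.259 and 0.350) they were not called.

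Of 37 other textbook NF-kB targets, 30 were measured, and 4 were called in WT against GFP with group alone (13.3%, against 2.95% of all genes). With the block the calls were 11 in WT against GFP (6 higher, 5 lower; 36.7% against 17.8%), 10 in D1709N against WT (4 higher, 6 lower; 33.3% against 15.5%) and 9 in G1809R against WT (4 higher, 5 lower; 30% against 12.7%). Ccl5 and Cxcl10, chemokines for lymphocytes, rose by 2.43 (adjusted p = 0.00768) and 3.15 (0.0298), and Ccl2, a monocyte chemokine, and Plau, urokinase, fell by 1.57 (0.0155) and 0.74 (0.0393). Against WT, Ccl2 rose by 1.29 with D1709N (0.0421) and by 1.31 with G1809R (0.0417). The Ccl5 call held without any 1 of the 12 arrays (0.00901 to 0.0439). The Cxcl10 call was lost without replicate 3 of D1709N or G1809R, WT replicate 1 or 2, or GFP replicate 1 or 3 (up to 0.115), and the Plau call was kept only without D1709N replicate 1 or WT replicate 3 (up to 0.166 otherwise). The Ccl2 call in WT against GFP was lost without WT replicate 1 or 2 or GFP replicate 2 or 3 (up to 0.0851), and those against WT were kept only without WT replicate 3 (up to 0.155 otherwise).

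The median over these targets was 0.05 in WT against GFP, −0.07 in D1709N against WT and 0.08 in G1809R against WT, so the targets moved in both directions. Cxcl10 is also an interferon-stimulated gene. The mean level of 22 such genes was 0.62, 2.27 and 0.62 in D1709N replicates 1 to 3, 1.22, 2.86 and 1.05 with G1809R, 3.23, 3.31 and 1.12 with WT and −1.09, 0.77 and −1.08 with GFP. In WT against GFP 4 of the 22 were called with group alone (18.2%, against 2.95% of all genes) and 21 with the block (95.5%, against 17.8%), all higher. Neither mutant gave a call against GFP with group alone. With the block 7 were called in D1709N against GFP (31.8%, against 4.25%) and 17 in G1809R against GFP (77.3%, against 3.74%), all higher. The part of these 22 genes in the members' results was not tested.

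Among 23 genes of IL-6 family signalling, 21 were measured. With group alone 2 were called, 1 higher and 1 lower, in WT against GFP and in each mutant against WT (9.52% each). The shares of all genes were 2.95% in WT against GFP, 1.66% in D1709N against WT and 1.64% in G1809R against WT. With the block 10 were called in WT against GFP (5 higher, 5 lower; 47.6% against 17.8% of all genes) and 7 in each mutant against WT (4 higher, 3 lower; 33.3% against 15.5% and 12.7%). Il11, another cytokine of the family, stood at −2.11, −2.61 and −2.34 with D1709N, −2.29, −2.49 and −2.44 with G1809R, −1.31, −1.39 and −0.80 with WT and −2.10, −2.23 and −1.87 with GFP. All WT arrays lay above all others. It fell by 1.19 with D1709N against WT (adjusted p = 0.0186) and by 1.24 with G1809R (0.0160), and rose by 0.90 in WT against GFP (0.0358), the direction of Il6. The D1709N call was lost without D1709N replicate 2 or 3 or WT replicate 1 (up to 0.0929) and the G1809R call without any 1 G1809R array (up to 0.0765). The call in WT against GFP was kept only without D1709N replicate 1 or 2 or WT replicate 2 (up to 0.118 otherwise).

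Il6ra, the receptor that binds interleukin 6, had the opposite pattern. It stood at 4.52, 4.63 and 3.96 with D1709N, 4.52, 4.57 and 3.91 with G1809R, 3.33, 3.24 and 3.03 with WT and 4.66, 4.21 and 4.14 with GFP, with the 3 WT arrays the lowest. It rose against WT by 1.17 with D1709N (0.0425) and 1.13 with G1809R (0.0494) and fell by 1.14 in WT against GFP (0.0366). The D1709N call was kept only without G1809R replicate 3 or GFP replicate 1 (up to 0.174 otherwise), the G1809R call only without D1709N replicate 3 (0.178) and the call in WT against GFP only without D1709N replicate 3 or G1809R replicate 2 or 3 (0.128). Socs3, a feedback inhibitor of the pathway, and Il6st, the shared signal receptor, were called with the block only: Socs3 at 0.99 with D1709N against WT (block adjusted p = 0.0027), 0.94 with G1809R against WT (0.00339) and −1.03 in WT against GFP (0.00168), and Il6st at 0.29, 0.29 and −0.45 (0.0356, 0.038 and 0.00524). Others of the 10 were higher in WT than in GFP with the block: Socs1, another feedback inhibitor, by 0.53 (0.0106), and the cytokines Clcf1 by 1.03 (0.000377) and Ctf1 by 0.50 (0.0168). The list's median was 0.07 in D1709N against WT, −0.04 in G1809R against WT and −0.02 in WT against GFP.

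Of 18 prostaglandin genes, 11 were measured. Ptgs1, the constitutive cyclooxygenase, stood at 4.55, 4.56 and 4.15 with D1709N, 4.71, 4.34 and 4.14 with G1809R, 3.06, 3.21 and 3.58 with WT and 3.91, 3.76 and 3.84 with GFP. Both mutant groups lay above WT without overlap. It rose against WT by 1.14 with D1709N (adjusted p = 0.0213) and by 1.11 with G1809R (0.0226), while Ptgs2 differed by −0.17 and −0.18 and was not called. The calls were lost without WT replicate 1 or 2, and that for D1709N also without D1709N replicate 1 or 2 (up to 0.106) and that for G1809R without any 1 G1809R array (up to 0.0893). No other gene of this list was called with group alone in these comparisons (9.09% of the list in each, against 1.66% and 1.64% of all genes).

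**Figure D4:**
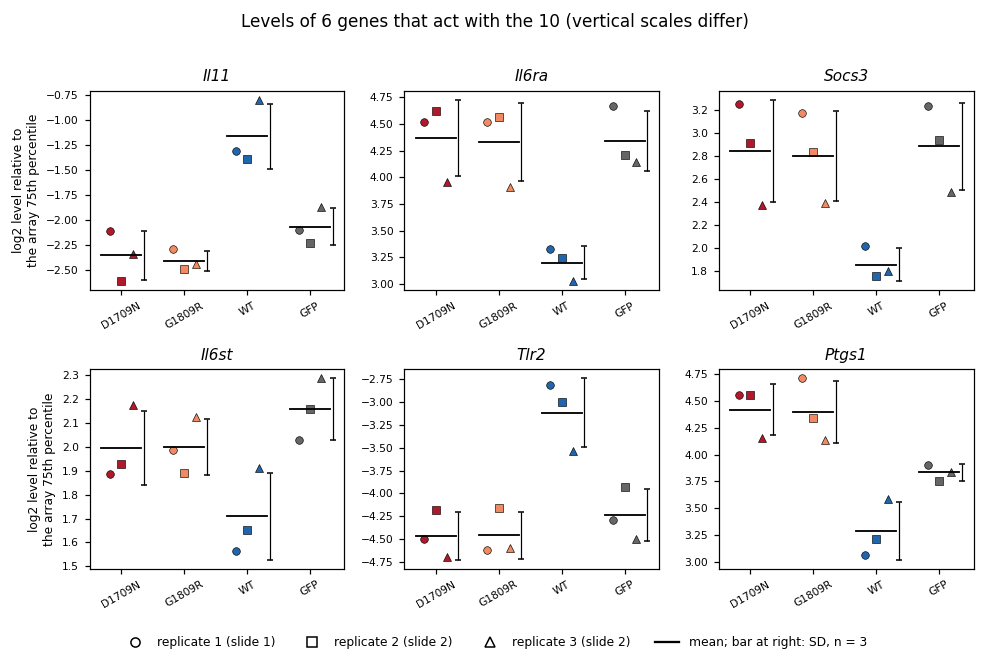
Log2 level relative to the array's 75th percentile (vertical axes, which differ between panels) of Il11, Il6ra, Socs3, Il6st, Tlr2 and Ptgs1 in D1709N, G1809R, WT and GFP cells. Points are single arrays by replicate number, the line is the mean and the bar the SD of 3 arrays. WT stands apart for Il11 and Tlr2 (above the other groups) and for Il6ra, Socs3 and Ptgs1 (below them).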

How the data were processed

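RNA of 12 samples (4 groups of 3) was hybridized to 1-colour Agilent mouse arrays, and the members and gene lists were chosen with earlier results of these data known. Per the file headers, the deposited scanner files hold an intensity per spot from Agilent Feature Extraction 11.0.1.1, background-subtracted and not scaled between arrays. The authors also deposited a table of log2 values for 31362 probes, used as an alternative. Its column medians were 9.40 to 9.42, and no source used here gives its scaling. The log2 of each processed intensity was taken relative to the array's 75th percentile over 59305 non-control spots, and spots with outlier flags were left out, which removed 287 of 55681 probes. Probes well above background on all 3 arrays of at least 1 group were kept (33024), and the brightest stood for its gene (24184 genes, 14732 with a symbol through RefSeq, GRCm38.p6). No coordinate came from the array files. The number of arrays limits the precision.

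The test was limma 3.58.1 in R 4.3.3, with the package data.table (version 1.17.8), two-sided, with Benjamini-Hochberg adjustment over the 24184 genes of each comparison and called under 0.05. The fit had group only. Arrays of the same replicate number deviated together from their group means (r = 0.601 to 0.853 over 18 pairs, against −0.675 to 0.197 over 36 pairs of different numbers), and each replicate 1 lay on 1 slide, so the numbers were taken to pair the arrays and the blocked values stand beside the others. The correlation of log2 levels with those deposited values was 0.995 for WT replicate 1 and over 0.999 elsewhere. Named genes were the 10 members, up to 4 called genes of each list by size of change, up to 3 by p where none was called, and the most similar genes; Socs3, Il6st, Socs1, Clcf1, Ctf1 and Ikbkb were named after their blocked values were seen. The normexp alternative used the median spot signal, since the mean was not among the columns. The script was tested on simulated arrays with known changes.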

Additional observations from a re-analysis of the deposited data

How the results depend on the processing

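With group alone, leaving out any 1 array gave 0 to 1 members called in WT against GFP and 0 to 0 in the other comparisons. With the replicate number as a block, 4 members were called in D1709N against GFP, 3 in G1809R against GFP, 3 in WT against GFP, 2 in D1709N against WT and 4 in G1809R against WT. Leaving out 1 array from that fit, chosen after seeing the data, gave 0 to 3, 0 to 5, 1 to 4, 2 to 3 and 2 to 3 in the same order. With the slide as a block, 1 member was called in D1709N against WT and 1 in G1809R against WT, both Il6, and 2 in WT against GFP, Vcam1 and Relb. Tnfaip3 was called with the replicate block only. In WT against GFP 0 members were called by limma with only the 2 groups in the fit, on the second slide alone or with no filter on dim probes. No called member changed sign under any alternative run. Of all 654 member values under the other settings, 9 that were not called changed sign, as did 28 of 720 with 1 array left out and 20 of 720 with 1 array left out of the blocked fit. Icam1 and Tlr2 have no value where probes had to be above background on all 12 arrays. Without the filter on dim probes the median of all genes moved to 0.168 in WT against GFP and −0.119 in G1809R against WT. Tab2, Tlr2, Ccl2, Ccl5, Cxcl10, Plau, Il11, Il6ra and Ptgs1 were not called with only the 2 groups in the fit or on the second slide alone. The cause of these changes was not tested, and signal near background limits Icam1 and Tlr2. Over all genes, limma called 12 with group alone and 1027 with the block in D1709N against GFP, 3 and 904 in G1809R against GFP, 713 and 4300 in WT against GFP, 402 and 3759 in D1709N against WT and 397 and 3064 in G1809R against WT. In D1709N against G1809R 0 were called in both fits (65 and 1063 at an unadjusted p under 0.05). With only the 2 groups in the fit, 0, 1, 3, 0 and 0 were called in the first 5 comparisons, with the slide as a block 97, 63, 2112, 1407 and 1206, on the second slide alone 1, 1, 3, 3 and 11, and with no filter on dim probes 2, 1, 206, 55 and 68.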
